A study of Mus musculus with 9 samples.

Results

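Ovulated eggs of the oldest and the youngest females of the series were compared: 3 pools of climacteric and 3 pools of prepubertal mouse oocytes, 6 of the 9 arrays in all. All pools came from B6C3F1 mice, a cross of C57Bl/6J and C3H/HeN. Prepubertal females were 3 weeks old. Climacteric females, at the age when cycles become irregular and fertility declines, are labelled 58 ± 10 weeks, while the growth protocol gives 52 weeks. Every female, of either age, received 10 IU of PMSG and, 48 h later, 10 IU of hCG, and metaphase II oocytes were collected from the oviduct 14 h after hCG, so both groups were hormonally primed rather than naturally ovulated. Each pool held 20 oocytes stripped of cumulus cells. The design text calls the oocytes zona-enclosed, whereas the treatment protocol has the zonae removed. RNA was amplified in 2 rounds, without DNase treatment, and labelled with Cy3 on 1-colour Agilent arrays. The labels do not say that the 3 pools of an age came from separate females, so a p-value here reflects only how far pools of 1 age scatter, which may be technical.

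A metaphase II oocyte is transcriptionally silent. Its RNA is the maternal store laid down during growth in the follicle and partly cleared during maturation. A difference in the amount of oocyte RNA at this stage would be a difference in what was stored, kept or degraded. A measured signal also depends on slide, probe and any RNA of other cells, and these parts were not tested. The store encodes the machinery for sperm binding, egg activation, chromosome segregation and the reprogramming of the zygote. Loss of chromosome cohesion and spindle errors are the best-known faults of eggs from old females, and eggs from prepubertal females are known for low developmental competence.

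A level is given here as the log2 signal of a probe minus the 75th percentile of its array, and a difference is the climacteric minus the prepubertal mean on that scale. Across the 6 arrays, 66.8% to 77.5% of probes were well above background and at most 1 probe was saturated, with climacteric array 3 and prepubertal array 2 the lowest. The test covered 28946 probes, those that cleared background on 3 or more of the 6. The 3 prepubertal arrays lay on slide 1 with mature array 1, climacteric arrays 1 and 2 on slide 2 with mature arrays 2 and 3, and climacteric array 3 alone on slide 3, so slide and age cannot be told apart within the 6 arrays. A fit with slide as a fixed block reaches this comparison only through the mature arrays (8 weeks), with mature array 1 the single link to slide 1. With slide as a random block the fit also draws on differences between slides. Climacteric array 3, alone on its slide, adds nothing to a difference with slide as a fixed block, which rests on climacteric arrays 1 and 2. Oocyte markers were bright at both ages, with Gdf9 at 8.92, 9.16 and 8.92 on prepubertal and 8.91, 9.06 and 9.33 on climacteric arrays, and their summed level, as a linear multiple of the 75th percentile, spanned 1400 to 1730 on prepubertal and 1410 to 1720 on climacteric arrays. That sum is carried by the brightest markers. Gene by gene, 2 of the 12 oocyte markers had a positive difference and the median was -0.36, between -0.48 and -0.22 over 23 alternative settings. Without overlap between the ages, 3 markers were lower (25% against 9.77% of all probes tested) and 0 higher. The markers are bright, with a median level of 5.44. In the brightest of 5 equal bins of probes by level, 1129 of 5789 were lower without overlap and the median difference was -0.13.

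At an adjusted p under 0.05 (limma, Benjamini-Hochberg), 17 probes were called. Of these, 12 were higher in climacteric oocytes, 0.0415% of the probes tested, and 5 were lower, 0.0173%. They read 16 named genes and 1 unnamed sequence: Cyth4, Gm7969, Plgrkt, Eml2, Tnni1, Ighv1-9 and 6 vomeronasal receptor genes of the Vmn1r family rose, and Prl8a2, Cpox, Trub2, Brat1 and the unnamed probe fell. Cyth4 and Ighv1-9 entered the test only through the climacteric arrays, on which they are high, so their calls had to lie in that direction and are given as a description. Each uncalled probe given below as a bound ("at least") likewise entered only through the age at which it is high. Trub2 and Brat1, above background on 3 prepubertal and 1 climacteric array, could not have been tested without the prepubertal arrays, which favoured a fall. Tnni1, above background on 2 prepubertal and 3 climacteric arrays, needed the climacteric ones, which favoured a rise. An uncalled probe above background on fewer than 3 arrays of 1 age likewise needed the arrays of the other. Where its level was higher at that other age, the filter favoured its direction. At an adjusted p under 0.10, a threshold chosen after the data were seen, 1070 probes were higher (3.70%) and 451 lower (1.56%). The arrays of the 2 ages did not overlap for 29.6% of probes, with climacteric arrays above for 5731 probes (19.8%) and below for 2828 (9.77%).

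**Figure D1:**
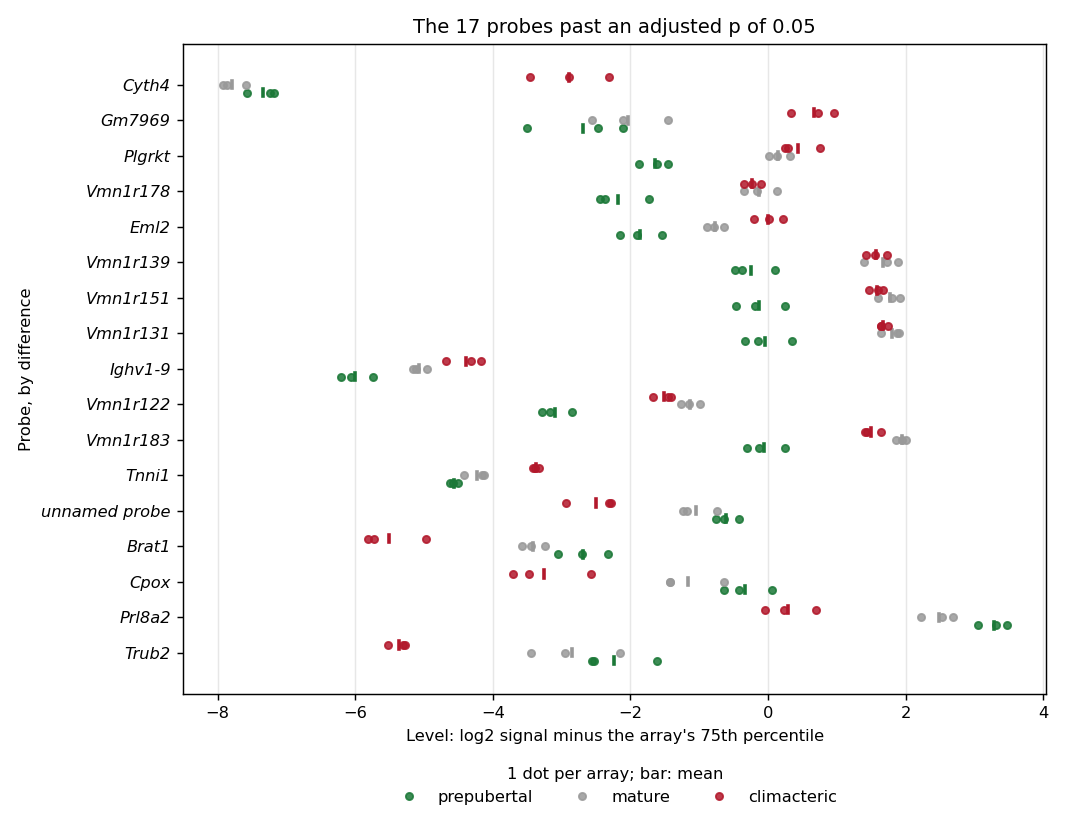
Levels of the 17 called probes on each array (x axis, log2 signal minus the 75th percentile of the array), with prepubertal arrays in green, mature arrays in grey and climacteric arrays in red, and a bar at each mean. Red and green dots are apart for each of the 17 probes, and the grey dots of the Vmn1r probes lie with the red ones.

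The called set was sensitive to single arrays and to the model. It counted 1, 10 and 2 probes without prepubertal array 1, 2 or 3, and 7, 0 and 1 without climacteric array 1, 2 or 3. The mature arrays enter through the shared estimate of spread: without mature array 1, 2 or 3 the count was 1297, 1 and 2. It was 0 with only the 6 arrays fitted (smallest adjusted p 0.051, 6011 probes at an unadjusted p under 0.05) and 0 with slide as a fixed block (smallest 0.112, 1935 probes), while slide as a random block kept Cyth4 and Prl8a2. Scaling moved the balance of 12 higher to 5 lower: quantile normalization gave 10 to 7, cyclic loess 11 to 13, and a percentile taken only over detected probes 18 to 3. The last also moved the median difference of all probes from 0.08 to 0.21. The 17 probes kept the sign of their difference in the settings that tested them, a direction largely fixed by their choice.

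The largest block of called probes belonged to 1 receptor family. Vmn1r genes encode vomeronasal type 1 receptors, G protein-coupled pheromone receptors of sensory neurons in the nose, and lie in clusters of close paralogues. The 6 called ones are Vmn1r122, Vmn1r178, Vmn1r139, Vmn1r131, Vmn1r151 and Vmn1r183, all on chromosome 7, and the probes of Vmn1r181 and Vmn1r124, with adjusted p = 0.0517 each (limma), came next. The probe sequences are shown because they bear on whether these 8 probes can tell the receptor genes apart: they fall into 3 groups, within which probes share at least 90.0% of their aligned bases and between which they share at most 50%.

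The first group reads a stretch in which the probes of Vmn1r122 (chr7:21918382-21918441, minus strand, build mm9) and Vmn1r178 (chr7:24679255-24679314, plus strand) differ at 2 of 56 aligned bases. Capitals mark the bases at which a probe differs from the first of its group, over the aligned part.
Vmn1r122: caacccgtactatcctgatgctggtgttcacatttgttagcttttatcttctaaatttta
Vmn1r178: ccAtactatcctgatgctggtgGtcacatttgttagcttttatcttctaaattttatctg

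The probe of Vmn1r181, not printed, differs from that of Vmn1r122 at 5 of 59 aligned bases. In the second group, Vmn1r131 (chr7:22330259-22330318, minus strand) and Vmn1r151 (chr7:23283850-23283909, minus strand) differ from Vmn1r139 (chr7:21004085-21004144, plus strand) at 3 and 5 of 60 bases.
Vmn1r139: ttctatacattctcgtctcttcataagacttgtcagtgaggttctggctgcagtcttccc
Vmn1r131: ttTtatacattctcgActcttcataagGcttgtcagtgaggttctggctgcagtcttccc
Vmn1r151: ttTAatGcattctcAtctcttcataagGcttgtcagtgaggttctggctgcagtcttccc

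In the third group, Vmn1r124 (chr7:22044713-22044772, minus strand) differs from Vmn1r183 (chr7:24840651-24840710, plus strand) at 6 of 60 bases. The RefSeq models of these 7 genes (GRCm38.p6) are single-transcript, with a length equal to their genomic span and a whole number of codons. Their coding and untranslated parts were not read.
Vmn1r183: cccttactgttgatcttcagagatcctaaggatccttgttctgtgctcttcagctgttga
Vmn1r124: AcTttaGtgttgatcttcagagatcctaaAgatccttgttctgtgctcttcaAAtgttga

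All 8 probes were higher on climacteric arrays, and the lowest climacteric value of each lay more than 1 unit above its highest prepubertal value. In the first group, Vmn1r122 read -3.17, -2.85 and -3.28 on prepubertal arrays 1, 2 and 3 and -1.41, -1.45 and -1.67 on climacteric arrays 1, 2 and 3. Vmn1r178 read -2.45, -1.73 and -2.37 against -0.23, -0.10 and -0.35, and Vmn1r181 went from a mean of -4.16 (SD 0.15) to -2.28 (SD 0.39), 3 arrays each. In the second group, whose probes moved nearly in step from array to array, the Vmn1r139 probe read -0.38, 0.10 and -0.47 on prepubertal arrays 1, 2 and 3 and 1.56, 1.72 and 1.43 on climacteric arrays 1, 2 and 3. The Vmn1r131 probe read -0.14, 0.36 and -0.33 against 1.64, 1.74 and 1.64, and the Vmn1r151 probe -0.19, 0.24 and -0.46 against 1.61, 1.68 and 1.47. In the third group, Vmn1r183 went from -0.13, 0.25 and -0.30 to 1.65, 1.44 and 1.40, and Vmn1r124 from -0.09, 0.27 and -0.30 to 1.61, 1.49 and 1.31. With sequences this alike, which receptor genes were read is uncertain.

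In fold terms, Vmn1r178 rose 3.88-fold (difference 1.96, SE 0.23), Vmn1r139 3.54-fold, Vmn1r151 3.29-fold, Vmn1r131 3.27-fold, Vmn1r122 3.01-fold and Vmn1r183 2.95-fold, each with a limma adjusted p of 0.0481. Vmn1r181 differed by 1.88 and Vmn1r124 by 1.51. Mature oocytes stood with the climacteric ones: mature means were 1.67 for Vmn1r139, 1.81 for Vmn1r131, 1.77 for Vmn1r151 and 1.94 for Vmn1r183. Mature array 1, on the same slide as the 3 prepubertal arrays, read 1.40 for Vmn1r139, 1.64 for Vmn1r131, 1.59 for Vmn1r151, 1.94 for Vmn1r183 and -1.15 for Vmn1r122. On that shared slide, each of these values was above all 3 prepubertal ones. With slide as a fixed block the differences of the 6 called probes were 1.47 to 1.70, none with an adjusted p under 0.05 (0.449 to 0.603).

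**Figure D2:**
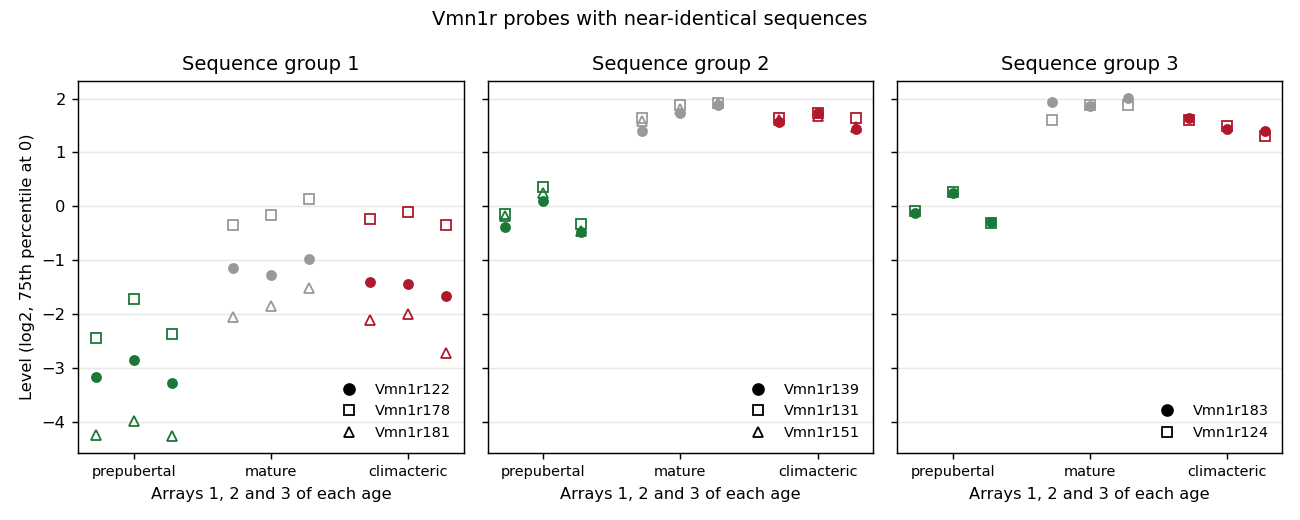
Levels (y axis, log2, 75th percentile at 0) of the 8 Vmn1r probes on arrays 1, 2 and 3 of each age, in a panel for each group of near-identical sequences and a symbol for each probe. For each of the 8 probes, prepubertal values (green) lie below its own mature (grey) and climacteric (red) values. The symbols of the second and of the third group nearly coincide, and those of the first lie apart.

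Probes elsewhere in the same genes, and like probes of other genes, did not all follow. A second probe of Vmn1r178 differed by 1.00 and a second probe of Vmn1r183 by 0.35, neither called. With slide as a fixed block these second probes differed by -0.19 and 0.01. Of the other probes on the array with at least 80% identity to one of the 8 over 40 or more bases, Vmn1r240 (90.0%) differed by 0.97, whereas Vmn1r169 (86.7%) went from a mean of -1.85 to -2.30, a difference of -0.45, and Vmn1r179 (80.4%) differed by 0.04. Of the 166 genes of the family, 91 were tested and 68 of those were positive. The family median was 0.36, against 0.08 for all probes. Its 41 tested genes on chromosome 7 had a median of 0.56, the 18 on chromosome 13 0.42, the 7 on chromosome 17 0.37 and the 22 on chromosome 6 0.12. The 3 on the separate chromosome 7 sequence named 7_random had a median of 0.79.

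The family medians of dim receptor genes depended on slide and scaling. With slide as a fixed block the median of the Vmn1r genes was -0.02, and it was 0.05 in the deposited value table and 0.10 with cyclic loess. Olfactory receptors, with 506 of 1102 genes tested and 378 positive, had a median of 0.26 that became 0.01 with the slide block. Vmn2r pheromone receptors (0.25 and 0.01, 43 genes) and Tas2r bitter taste receptors (0.30 and 0.03, 14 genes) behaved in the same way. Beta-defensins, antimicrobial peptides, had a median of 0.24 over 23 genes, which turned to -0.08 with cyclic loess. None of these 4 families had a called member. The individual members with the smallest p were Olfr1176 (1.84), Olfr2 (at least 3.08-fold, not above background on prepubertal arrays) and Olfr607 (0.87) among olfactory receptors, Vmn2r107 (at least 4.78-fold), Vmn2r35 (1.12) and Vmn2r67 (0.89) among Vmn2r genes, Tas2r119 (0.93), Tas2r143 (2.41) and Tas2r137 (0.66) among taste receptors, and Defb41 (-0.90), Defb45 (1.25) and Defb36 (0.71) among defensins. Tas2r143 was above background on 1 prepubertal array and Defb45 on 2. Each needed the climacteric arrays to be tested, which favoured a rise.

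Brightness moved with these values. In 5 equal bins of probes by mean level over the 6 arrays, from dimmest to brightest, the median difference was 0.27, 0.25, 0.16, -0.04 and -0.13. With slide as a fixed block the same medians were 0.07, 0.07, 0.04, -0.01 and -0.03. Across the 28946 probes, which are not independent replicates, the difference correlated with the GC content of the probe at r = 0.21 and with level at r = -0.21. Between single arrays of the 2 ages the correlation with GC was 0.11 to 0.21, against -0.02 to 0.00 between prepubertal arrays and 0.00 to 0.11 between climacteric arrays. The part of GC, level and slide in the difference of any gene or list was not tested.

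**Figure D3:**
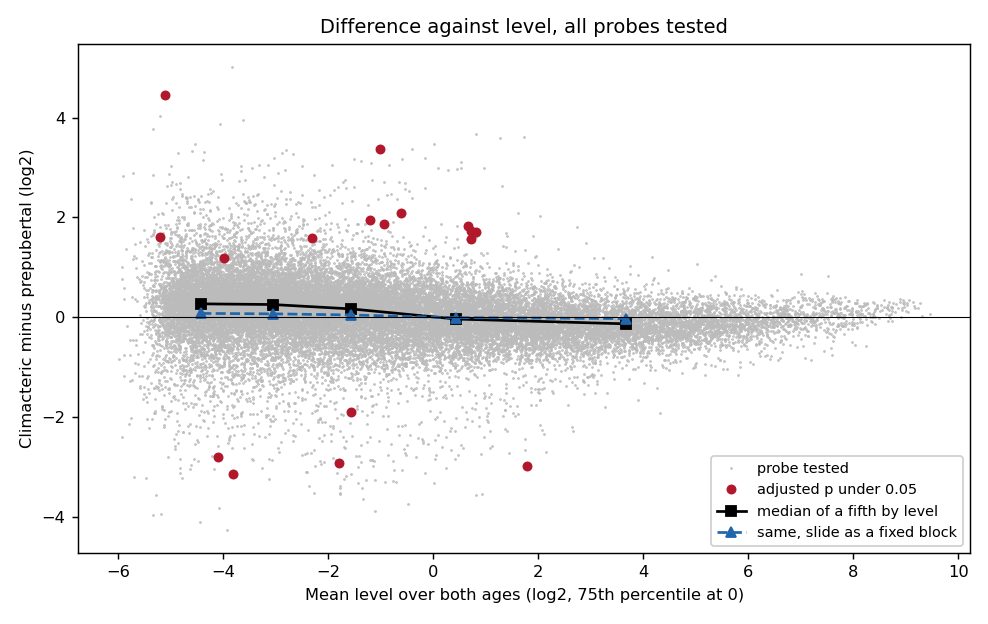
Difference between climacteric and prepubertal means (y axis, log2) against the mean level over both ages (x axis, log2) for the 28946 probes tested, called probes in red. Black squares are medians in 5 bins by level, falling from 0.27 to -0.13, and blue triangles the same medians with slide as a fixed block, from 0.07 to -0.03.

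Prl8a2, a member of the prolactin family best known from the decidua and placenta, fell, and its probe was the brightest of the 17. Its probe (chr13:27445965-27446024) read 3.05, 3.32 and 3.47 on prepubertal arrays 1, 2 and 3 and 0.23, -0.05 and 0.69 on climacteric arrays 1, 2 and 3. The 2 sets are more than 2 units apart. The fall was 7.95-fold (difference -2.99, SE 0.23, limma adjusted p = 0.0117), mature oocytes stood between at 2.48, and with slide as a fixed block the difference was -2.88 (adjusted p = 0.211). Of 15 prolactin family genes tested, 5 had a positive difference and the median was -0.07, a sign that turned with normexp (0.01), when the percentile was taken over detected probes (0.06), without climacteric array 3 (0.009) and without the climacteric and prepubertal arrays of lowest detection (0.0305). Prl3a1 differed by -3.03 without being called (adjusted p = 0.165).

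Cpox, which encodes coproporphyrinogen oxidase of haem synthesis, fell 7.56-fold. It read -0.42, 0.06 and -0.63 on prepubertal arrays and -2.58, -3.47 and -3.71 on climacteric arrays, with no overlap (difference -2.92, SE 0.35, limma adjusted p = 0.0481). Of the other 8 haem synthesis genes tested, 6 had a positive difference. Uros, the uroporphyrinogen III synthase gene, differed by -1.06 (adjusted p = 0.0959), and the list's median was 0.06. Blvrb, which encodes a biliverdin reductase that acts in haem breakdown, was at background on the 3 prepubertal arrays and read -2.09, -3.94 and -4.29 on climacteric arrays, at least 4.08-fold higher, with an adjusted p of 0.0674.

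Trub2 and Brat1 fell to near background, and each passed the detection filter only with the prepubertal arrays, which favoured a fall. Trub2 encodes a pseudouridine synthase of mitochondrial RNA. Its probe read -2.56, -1.61 and -2.52 on prepubertal arrays and -5.53, -5.28 and -5.30 on climacteric arrays, where it was well above background on 1 of 3, a fitted 8.81-fold fall (adjusted p = 0.0481, limma). Brat1, a BRCA1-associated activator of the ATM kinase, read -2.32, -3.06 and -2.71 against -5.73, -4.98 and -5.81, again above background on 1 of 3 climacteric arrays, a fitted 7.03-fold fall (adjusted p = 0.0351). A second Brat1 probe, at -1.74 and -1.69 on average, differed by 0.05, so the 2 probes of the gene disagree. Of the 12 pseudouridine synthases tested, Trub2 among them, 6 had a positive difference, with Trub1 at 0.67 and Pus1 at -0.68. The unnamed probe, on chromosome 10 (chr10:115158234-115158293), fell by 1.90 on the log2 scale, from -0.61 to -2.50.

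Plgrkt and Eml2 rose at moderate brightness. Plgrkt, the plasminogen receptor with a C-terminal lysine, read -1.45, -1.87 and -1.61 on prepubertal arrays and 0.30, 0.25 and 0.76 on climacteric arrays. It rose 4.23-fold (difference 2.08, SE 0.20, adjusted p = 0.0351, limma), and mature oocytes were at 0.15, near the climacteric level. The other 7 plasminogen system genes tested were not called. Eml2, a microtubule-associated protein of the EMAP family, read -1.91, -2.15 and -1.55 against 0.21, -0.21 and 0.02, a 3.67-fold rise (SE 0.20 for a difference of 1.88, adjusted p = 0.0481). A second Eml2 probe differed by 0.55 and was not called, and of the 6 family members tested 4 had a positive difference.

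Gm7969, a predicted gene, rose 10.3-fold, the largest rise measured above background at both ages among called probes. It read -3.51, -2.47 and -2.11 on prepubertal and 0.96, 0.73 and 0.34 on climacteric arrays (difference 3.37, SE 0.41, limma adjusted p = 0.0481). A second, overlapping probe differed by 2.47. Tnni1, slow skeletal troponin I, rose 2.28-fold from -4.57 to -3.38 and was above background on 2 of 3 prepubertal arrays (adjusted p = 0.0490). All 7 troponin genes tested had a positive difference, median 0.65, against 56.5% of all probes, and the median was 0.27 with slide as a fixed block.

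Cyth4 encodes cytohesin 4, which loads GTP onto ARF proteins and is mostly a blood-cell gene. On the prepubertal arrays its probe did not clear background, and it read -3.46, -2.89 and -2.31 on climacteric arrays, at least 5.99-fold higher (limma adjusted p = 0.00442). The bound sets the climacteric mean against, on each prepubertal array, the lowest signal of a probe above background. Normexp correction gave 1.37 (adjusted p = 0.064) and the deposited values 1.08 (adjusted p = 0.0705), both short of the threshold. The other 11 ARF exchange factors tested were not called. Ighv1-9, an immunoglobulin heavy chain variable segment, was likewise not above background on prepubertal arrays, read -4.68, -4.32 and -4.18 on climacteric arrays and was at least 2.10-fold higher (limma adjusted p = 0.0481). Neither p supports the direction, since neither probe could have been tested without the climacteric arrays.

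Leukocytes and follicle cells are other possible sources of RNA in a pool, and their markers were read beside these genes. Differences were positive for 14 of 15 leukocyte markers tested. Their median was 0.63, against 0.08 for all probes and 0.36 with slide as a fixed block, and 0 were called. Fcer1g, an Fc receptor subunit, read -0.09, -0.05 and -0.21 on prepubertal arrays and 0.71, 1.30 and 1.07 on climacteric arrays (difference 1.15, adjusted p = 0.0848), Coro1a differed by 1.16 and the complement gene C1qb by 1.34. The summed linear level of the leukocyte list was 95.5 to 126 on prepubertal and 98.5 to 137 on climacteric arrays, ranges that overlap, and 13 of its 16 genes were above background on all 6 arrays. The part of other cells in the differences of Cyth4 and Ighv1-9 was not tested.

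For cumulus and granulosa markers only 4 of 17 differences were positive, and the median was -0.41, which turned to 0.30 with slide as a fixed block. Inhbb, an inhibin and activin subunit, read -1.15, -1.67 and -1.52 on prepubertal and -2.61, -3.68 and -4.47 on climacteric arrays. Cyp11a1, the enzyme that starts steroid synthesis, read -3.11, -3.71 and -5.22 against 0.00, -1.11 and -1.84, and Cyp19a1, aromatase, differed by -0.68. Cyp11a1 was above background on 2 of 3 prepubertal arrays and Inhbb on 2 of 3 climacteric arrays. The summed level of the list was 37.1 to 56.0 on prepubertal and 31.0 to 39.6 on climacteric arrays. Theca and stroma markers (8 of 10 positive, median 0.41, Col1a2 at 1.17, Lum at -0.48, Cyp17a1 at 0.27), oviduct markers (7 of 9, 0.46, Sprr2f at 0.90, Krt18 at 2.69, Ovgp1 at 0.75), erythroid markers (5 of 5, 0.36, Hbb-bt at 0.85, Hba-a1 at 0.71, Klf1 at 0.36) and endothelial markers (4 of 7, 0.20, Cldn5 at 0.64, Vwf at 0.71, Egfl7 at -1.49) had no called member. With slide as a fixed block these medians were 0.22, -0.18, 0.09 and 0.01, and the endothelial one was -0.01, -0.16 and -0.12 without climacteric array 1, climacteric array 2 or prepubertal array 1. Cldn5 was at -0.04 with slide as a fixed block, and Sprr2f ranged from -0.18 to 1.04 over the alternatives. In a pool, fewer contaminating cells and less RNA per cell cannot be told apart.

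Among genes of oocyte function, none was called, and the lowest p values belonged to Kdm1b and Smc4. Kdm1b, the H3K4 demethylase that maternal imprints require, read 6.30, 6.49 and 6.39 on prepubertal arrays and 5.26, 5.09 and 5.36 on climacteric arrays, a difference of -1.16 (SE 0.15, limma adjusted p = 0.0517). Smc4, the ATPase core of condensin, read 2.32, 2.35 and 2.24 against 1.14, 1.20 and 1.01, a difference of -1.19 (SE 0.15, adjusted p = 0.0517). Neither gene's arrays overlapped between ages, mature oocytes stood between at 5.61 and 1.74, and both genes passed the threshold when 1 probe per gene was tested. Over the alternatives, the adjusted p of Kdm1b ranged from 0.0157 to 0.50 and that of Smc4 from 0.015 to 0.642.

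Condensin, the ring complex that compacts chromosomes for division, had mostly negative differences. Differences were negative for 7 of 8 subunits tested, and their median was -0.42 against 0.08 for all probes and -0.42 with slide as a fixed block. Smc2, the partner of Smc4, read -0.89, -1.21 and -1.03 against -2.03, -1.89 and -1.65 (difference -0.81, adjusted p = 0.0921), and Ncapg differed by -0.45. At an adjusted p under 0.10, 2 of 8 were lower, against 1.56% of all probes. In the brightest of the 5 bins by level, where the list's median level of 2.15 lies, 2.75% were lower. The median difference of that bin was -0.13. The list's median was between -0.53 and -0.26 over 23 alternative settings.

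Cohesin, which holds sister chromatids together from fetal life until the egg divides, had differences nearer 0 as a list. Of 19 genes tested, 5 had a positive difference and the median was -0.19. Smc1a differed by -0.75 (adjusted p = 0.0856), Stag1 by -0.58 and the cohesin release factor Wapl by -0.41. Rec8, the meiotic kleisin, read 0.73, 0.63 and 0.62 on prepubertal and 0.97, 0.95 and 1.23 on climacteric arrays, a difference of 0.39, and Sgo2a, the protector of centromeric cohesion, differed by 0.13. Smc1b, the meiotic partner of Smc3, read -0.17, -0.66 and 0.19 on prepubertal arrays and -4.25, -0.76 and 0.50 on climacteric arrays, so its difference of -1.29 rests on climacteric array 1 and the groups overlap.

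Genes of sperm binding and egg activation had mostly negative differences, 5 of 22 positive with a median of -0.40, and -0.41 with slide as a fixed block. Camk2g, the calmodulin-dependent kinase that carries the calcium signal of fertilization, read 4.63, 4.55 and 4.63 on prepubertal and 3.53, 3.75 and 3.65 on climacteric arrays (difference -0.96, SE 0.16, limma adjusted p = 0.0848). Slc39a6, a zinc transporter, differed by -0.97, and Cd9, the tetraspanin needed for sperm-egg fusion, read 0.46, 0.56 and 0.06 against -0.45, -0.66 and -0.79. The tyrosine kinase gene Src, picked out after its value was seen, had the lowest difference, -2.88 (adjusted p = 0.193). At an adjusted p under 0.10, 3 of 22 were lower and 0 higher, against 1.56% and 3.70% of all probes. Arrays did not overlap for 8 lower genes, 36.4% against 9.77% of all probes. The list's median level of 1.01 lies in the next-to-brightest of the 5 bins by level. There 797 of 5789 probes were lower without overlap, 2.16% were lower at an adjusted p under 0.10 and the median difference was -0.04. The list's median was between -0.59 and -0.26 over 23 settings.

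**Figure D4:**
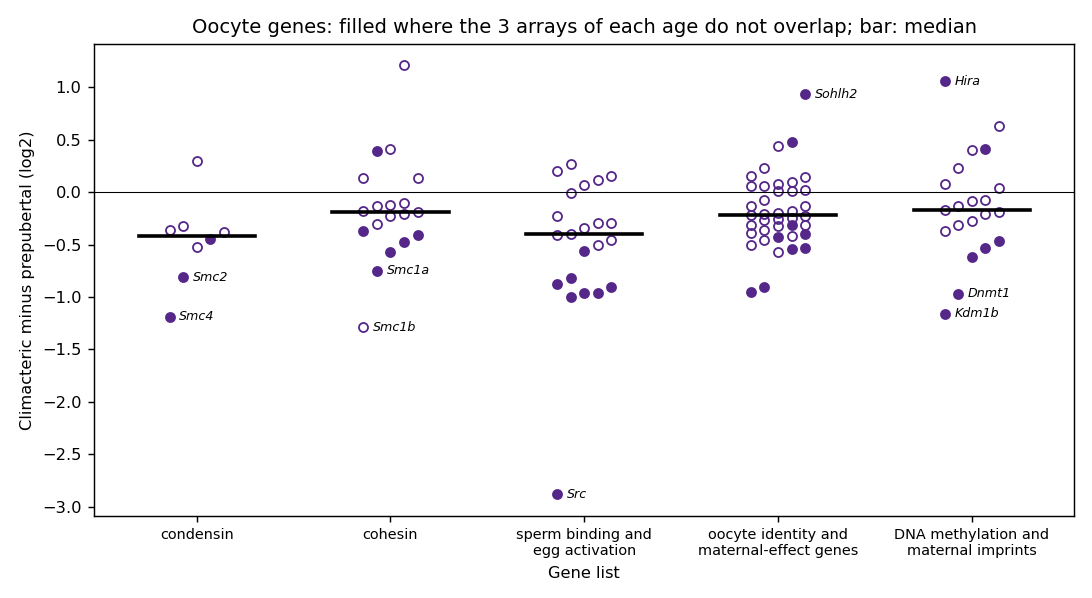
Difference between climacteric and prepubertal means (y axis, log2) of each tested gene of 5 lists of oocyte function, filled where the 3 arrays of each age do not overlap, with a bar at the median of the list. Medians lie below 0 in all 5 lists, from -0.42 for condensin to -0.17 for DNA methylation and maternal imprints. The bins by level that hold the lists' median levels also had medians below 0, -0.04 and -0.13.

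Oocyte identity and maternal-effect genes had 13 of 40 positive and a median of -0.22. The list's median level of 5.36 lies in the brightest of the 5 bins by level. In that bin 33.8% of probes had a positive difference and the median was -0.13. Nlrp5, of the subcortical maternal complex, read 6.30, 5.71 and 5.30 on prepubertal and 4.74, 4.84 and 4.87 on climacteric arrays (difference -0.95, adjusted p = 0.101), and Zp1, a zona pellucida glycoprotein, differed by -0.90. Sohlh2, a transcription factor of early follicles, read 1.85, 2.28 and 2.32 against 3.12, 3.31 and 2.83, higher by 0.93 (adjusted p = 0.0894). Of the oocyte growth factor genes, Gdf9 differed by 0.10 (SE 0.16) and Bmp15 by -0.39 (SE 0.20), and Zp3 by -0.23 (SE 0.30). Mos, the kinase that holds the egg at metaphase II, read 2.76, 2.76 and 2.74 against 2.23, 2.18 and 2.35, a difference of -0.50 (adjusted p = 0.144).

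For DNA methylation and maternal imprints, 7 of 21 genes were positive, with a median of -0.17. The list's median level of 3.86 lies in the same brightest bin, with 33.8% positive and a median of -0.13. Dnmt1, the maintenance methyltransferase, read 4.28, 4.08 and 3.49 on prepubertal and 2.36, 3.15 and 3.42 on climacteric arrays (difference -0.97, SE 0.32, adjusted p = 0.134), and the highest climacteric value was just below the lowest prepubertal one. Dnmt3a, which methylates the oocyte genome de novo, differed by -0.61 and its cofactor Dnmt3l by -0.28. Hira, a histone H3.3 chaperone, differed by 1.05 but by -0.07 with slide as a fixed block. Among chromatin enzymes, Smyd3 (-1.33), Ash1l (-1.98) and Suv39h1 (0.72) led the histone methyltransferases (7 of 28 positive, median -0.21, and -0.03 with the slide block). Smyd3 and Ash1l were above background on 2 of 3 climacteric arrays and needed the prepubertal ones, which favoured a fall. Kdm5b (0.77) and Kdm3a (-0.52) followed Kdm1b among lysine demethylases (8 of 19, median -0.14, and 0.02 with the slide block). The H3.3 gene H3f3a differed by -0.84 among histones (10 of 21, -0.01, and 0.18 with the slide block).

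No spindle or cell cycle gene was called. Of 29 checkpoint and kinetochore genes 10 were positive, median -0.11, turning to 0.09 with slide as a fixed block. Bub1b differed by 0.01 (SE 0.17) and Mad2l1 by -0.08 (SE 0.21), while Aurka differed by -0.67, Mad1l1 by -0.65 and Bub1 by -1.04. In the meiotic cell cycle list (9 of 20, -0.07) Ccnb1, cyclin B1, differed by 0.20, Cdc25a by -0.65 and Marf1 by 0.43. Telomere genes were near the median of all probes (10 of 15, 0.04), with Tert at 0.23, Terc at 0.56 and Tinf2 at -0.21, and DNA repair genes had 19 of 47 positive and a median of -0.11, turning to 0.04 with slide as a fixed block, with Rad50 at -0.93, Atr at -0.73 and Msh5 at 0.66.

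Energy and stress genes gave list medians that moved with slide. Oxidative phosphorylation had 20 of 80 positive and a median of -0.30, which was 0.05 with slide as a fixed block, and its leading members were Atp5pb (-0.80), Cox6c (-0.91) and Ndufb4 (-0.83). Cytosolic ribosome genes (17 of 66, -0.14) were at 0.43 with the slide block and at 0.01 in the deposited table, with Rps2 at -0.89, Rps28 at -0.61 and Rpl4 at -0.56. For mitochondrial upkeep (9 of 21, -0.07), Tfb1m differed by -1.24 and Tfam by 0.55, and Ppargc1a, the coactivator of mitochondrial biogenesis, was at least 3.55-fold higher than a prepubertal level at background. Antioxidant genes were balanced (19 of 37, 0.00), with Gpx4 at 0.79, Gpx8 at 0.62, Glrx at -0.41 and Sod1 at -0.16. Sirt1 differed by -0.26. Among nutrient sensing genes (10 of 28, -0.18, and -0.01 with the slide block) Insr differed by 1.14, Mtor by -1.06 and Rheb by -0.63.

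**Figure D5:**
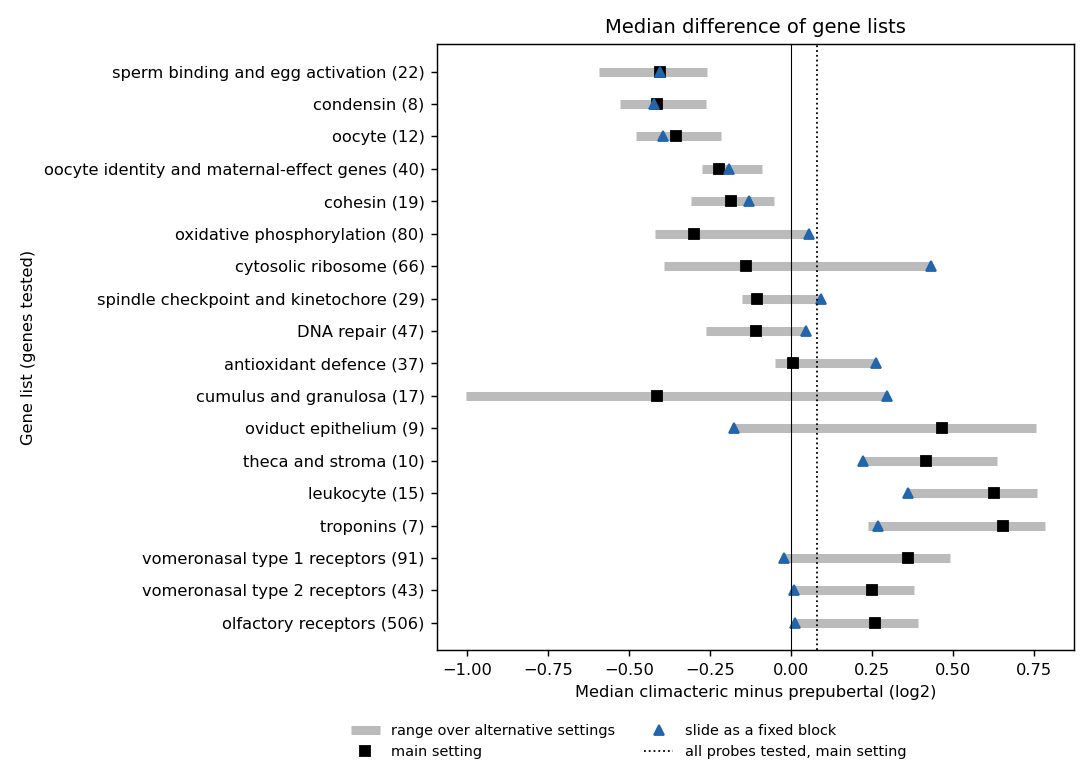
Median difference between climacteric and prepubertal means (x axis, log2) of 18 gene lists, with the number of genes tested in brackets, in the main setting (black squares), with slide as a fixed block (blue triangles) and over all settings (grey bars). Sperm binding, condensin and oocyte lists stay below 0 in all settings, leukocyte and troponin lists above it, and oxidative phosphorylation, ribosome and cumulus lists cross it.

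Of the remaining lists, none had a called member. Suox, mitochondrial sulfite oxidase and a molybdenum enzyme, read 2.72, 2.69 and 2.50 on prepubertal and 3.77, 3.96 and 3.74 on climacteric arrays (difference 1.18, adjusted p = 0.0517, limma), with mature oocytes at 3.73. Its list had 3 of 9 positive and a median of -0.18, with Mocs2 at -0.82 and Mocs1 at 0.64. In the signal recognition particle list (10 of 21, -0.05, and 0.13 with the slide block) Srp68 differed by 1.37, Ssr1 by -0.82 and Tram1 by -0.46. In the exocyst (5 of 9, 0.03) Exoc7 differed by 1.73 and Exoc5 by 0.25. Exoc1 differed by -0.52, but by 0.11 with the slide block. The probes of Srp68 (chr11:116106502-116106561) and Exoc7 (chr11:116151283-116151557) lie close together on the minus strand.

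The medians of several of these lists turned sign with a setting. Glycolysis had 11 of 20 positive (median 0.10, 0.41 with the slide block, -0.19 without climacteric array 1 and -0.08 without prepubertal array 2), with Slc2a3 at -1.73 and Ldhb at -0.56. Hk2 was at -0.63, but at 0.34 with the slide block. The citric acid cycle had 10 of 25 (-0.10, and 0.01 with the slide block), with Aco1 at -0.94, Dld at -0.82 and Idh3b at 1.20. Idh3b was above background on 2 of 3 prepubertal arrays. Cholesterol synthesis had 14 of 22 (0.20), with Ebp at 1.04 and Hsd17b7 at -0.41. Maternal mRNA storage and decay had 9 of 34 (-0.17), with Eif4enif1 at -0.47, Ago2 at 0.47 and Ybx2 at -0.58. Chaperones had 10 of 29 (-0.19, and -0.02 with the slide block), with Dnaja1 at -0.67, Hsp90aa1 at -0.75 and Cct2 at -0.86. The proteasome had 16 of 38 (-0.07, and 0.11 with the slide block), with Psmc6 at -0.81, Psma5 at -0.73 and Psma3 at -0.78. Over the alternatives, Psma3 ranged from -0.95 to 0.04. Autophagy had 11 of 24 (-0.06, and 0.01 with the slide block), with Atg14 at -0.70 and Atg12 at -0.73. Atg9a was at 1.64, but at -0.13 with the slide block. Apoptosis had 15 of 27 (0.05, and -0.03 with the slide block), with Bik at 0.89, Bcl2l2 at -0.97 and Bcl2 at 0.54. The medians of the meiotic cell cycle, mitochondrial upkeep, antioxidant, histone, molybdenum, exocyst, haem synthesis, plasminogen, pseudouridine synthase and ARF exchange factor lists also turned sign in some of the settings.

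Other probes narrowly missed the threshold of 0.05, with limma adjusted p from 0.0517 to 0.0674. They included Tmem205 (at least 2.80-fold higher, prepubertal at background), Mettl5 (at least 1.37-fold lower, climacteric at background) and Snx25 (at least 2.67-fold higher). A second Mettl5 probe, with values on 2 prepubertal arrays and above background on each array that gave one, differed by -1.88, in the same direction, while a second Snx25 probe, at 1.41 and 1.12, differed by -0.28. Trim6 differed by -2.09, with its other probes at 0.71 and -1.85. The probe at -1.85 had an SE of 1.42 and overlapped between the ages. It was above background on 2 prepubertal arrays and 1 climacteric array. Tmem248 differed by -1.09 with a second probe at -0.38, and Mphosph8, a reader of methylated histone H3, by -1.35 from 3.80 to 2.46.

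The levels of mature oocytes enter the differences above only where slide was a fixed block. At probes chosen for a difference between the climacteric and prepubertal ages, mature oocytes lay mostly in between. On a scale with the prepubertal mean at 0 and the climacteric mean at 1, the median position of the mature mean was 0.53 among the 1070 probes higher at an adjusted p under 0.10 and 0.43 among the 451 lower ones. The mature mean lay beyond the prepubertal one for 5.89% of the higher and 11.3% of the lower probes, and beyond the climacteric one for 2.80% and 5.54%. These probes were chosen because their climacteric and prepubertal means lie apart. At such probes, a group without any trend with age would also tend to fall between those means. The order therefore cannot show a trend with age. The same holds where mature oocytes stood between the ages for a gene named above. The part of slide in this order was not tested.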

How the data were processed

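Oocyte RNA was measured on 9 Agilent 1-colour arrays. Per the file headers, spot intensities (gProcessedSignal, gMeanSignal, gBGMedianSignal) came from Agilent Feature Extraction 9.5.1.1 (9.5 in the submitters' processing notes) after spatial and multiplicative detrending, with probe positions on mm9. The authors also deposited a table of log2 values, which correlated with log2 gMeanSignal at 0.999 or more on every array and had medians of 8.03 to 8.05. Its normalization is not given in the sources used here.

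Here, log2(gProcessedSignal) was averaged over non-outlier spots of each of 39429 probes, and each array's 75th percentile was subtracted. A probe entered the test when it cleared background on 3 or more of the 6 climacteric and prepubertal arrays and had values on 2 or more per age. limma 3.58.1 (R 4.3.3) fitted all 9 arrays, with mature arrays adding to the spread estimate (6 residual and 2.48 prior degrees of freedom), and p-values were adjusted over all probes tested by Benjamini-Hochberg. The number of arrays limits precision. The fit was tested on simulated data. Symbols came from RefSeq for GRCm38.p6 (29670 probes), else from the array (1717), and 8042 probes had none. No exon or UTR annotation of mm9 was used here.

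Named genes were all called probes, the next by p up to 30, up to 3 genes per list by p where none was called, and a panel; 1 gene that this rule chose is not reported here. A list gene was read by its brightest tested probe, and other probes are given where sign or call differ. The members and lists were chosen with earlier results of these data known. Where a probe was not above background on any array of an age, its fold is a bound against the lowest signal of a detected probe on each array. Scaling, filter, slide, replicate and leave-out alternatives were tried, of which the threshold of 0.10 and the repeated detection filter when an array was left out were chosen after seeing the data. Groups of 3 arrays were not tested for outliers. Figures used matplotlib.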

Additional observations from a re-analysis of the deposited data

How the results depend on the processing

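The count of 17 called probes was 29 with normexp, 32 with array weights, 5 with no filter on dim probes, 4 with a filter over all 9 arrays, 2 with slide as a random block, and 0 with only the 6 arrays, with slide as a fixed block and without the climacteric and prepubertal arrays of lowest detection. It was 1521 at an adjusted p under 0.10 and 0 to 1297 without 1 array. Replicate numbers did not pair the arrays (correlations of same-numbered arrays -0.08 to 0.21), and a replicate block gave 0 calls, 1 probe at an adjusted p under 0.10 and 6410 at an unadjusted p under 0.05. The share of probes not overlapping, 29.6%, was 25.3% with quantile normalization, 26.3% with cyclic loess, 24.8% with normexp, 33.1% with the percentile over detected probes, 24.6% in the deposited table, 25.7% with no filter, 30.3% with detection on all 6 arrays, 30.2% with 1 probe per gene, 30.1% with the probes of a gene averaged, 51.5% without the 2 arrays of lowest detection and 29.5% to 41.4% without 1 array. The median difference, 0.08, was 0.0167, -0.0129, 0.21 and 0.0085 with quantile, cyclic loess, the percentile over detected probes and the deposited table, 0.14 with no filter, 0.0627 with detection on all 6 arrays and 0.0658 to 0.0998 without 1 array. The causes were not tested. Of 427 values of called probes under alternatives, 186 kept their call and 241 missed the threshold, with no change of sign. Signal over background limits Cyth4, Ighv1-9, Trub2 and Brat1 most.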
